A study of Arabidopsis thaliana with 6 samples.

Results

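The light reactions of photosynthesis run on protein complexes of the thylakoid membrane whose subunits are encoded partly in the nucleus and partly in the chloroplast. The nuclear genes for the antennas, the photosystem subunits, the soluble electron carriers and the ATP synthase were examined here: 52 genes of the 21671 transcripts with a read in any library. They were chosen by what they encode and not by their level, but with earlier results of these data known. They comprise 6 LHCA genes (photosystem I, PSI, antenna), 14 LHCB genes (photosystem II, PSII, antenna), 12 PSI subunit genes, 10 PSII subunit genes, 7 electron transport genes and 3 ATP synthase genes. Of the 52, 50 passed the filter on low counts and were tested. LHCA6 and LHCB2.3 did not pass it.

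The study asked which mRNAs change when the soybean transcription factor GmWRI1 is made in leaf cells. Leaf mesophyll protoplasts, which are leaf cells without their walls, were prepared from young Arabidopsis thaliana Col-0 plants. One group was transfected with 35S:GmWRI1, which carries the GmWRI1-A cDNA behind the constitutive 35S promoter of a plant virus. The control group received 35S:mCHERRY, which encodes a red fluorescent protein behind the same promoter. Each group had 3 biological replicates, harvested 16 h after transfection. Expression was transient, the share of transfected cells was not measured here, and all 6 libraries come from isolated protoplasts with no untreated leaf beside them. The soybean and mCHERRY RNAs are not Arabidopsis transcripts and were not analysed here, so the labels could not be checked on the transgenes.

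Light is gathered by chlorophyll-binding LHC proteins and passed to the reaction centers. PSII splits water, aided by the extrinsic proteins PsbO, PsbP and PsbQ, and its electrons pass through the cytochrome b6f complex and plastocyanin to PSI, then through ferredoxin and ferredoxin-NADP reductase (FNR) to NADPH. The proton gradient drives the chloroplast ATP synthase. In leaves, nuclear genes of this kind are known to respond together to light, to the clock, to sugars and to signals from the chloroplast, and the GLK transcription factors are known activators of many of them.

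Libraries held 4155836 to 11748328 counts on genes, mCHERRY replicate 3 being the shallowest. A line that names no gene held 39.4% to 63.3% of the reads in each file, with the largest share also in mCHERRY replicate 3. Libraries of the same group correlated at r = 0.982 to 0.988 on log2 CPM (gene counts scaled to a common library size) across genes, and libraries of different groups at 0.914 to 0.938. The 3 mesophyll markers were detected in every library. RBCS1A measured 37.4 to 48.7 CPM in mCHERRY and 307 to 369 CPM in GmWRI1, RCA 72.4 to 84.1 and 175.5 to 192 CPM, and CA1 58.4 to 60.2 and 46.9 to 62.8 CPM. Their sum was 3.14-fold higher in GmWRI1, without overlap, and its part in the members' values was not tested. Markers of other leaf cell types were low, apart from the phloem marker AHA3. The 3 epidermis markers summed to 0.122 to 0.742 CPM in mCHERRY and 0.202 to 1.62 CPM in GmWRI1, and the 4 guard cell markers to 0.99 to 2.27 and 1.21 to 3.18 CPM. Among the epidermis markers, FDH had 0, 0 and 0 counts in mCHERRY and 16, 4 and 1 in GmWRI1. Of the 3 phloem markers, SUC2 and APL stayed under 1 CPM in all 6 libraries, while AHA3, which encodes a proton pump, rose from 30.9 to 33.3 CPM to between 233 and 330 CPM. In bulk samples such as these, fewer cells with an mRNA and less mRNA per cell cannot be told apart.

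WRI1 proteins are known to bind a DNA element called the AW Box, and the stretches shown here are those near the transcript start of members to which the results return. The search used the letters CNTNGNNNNNNNCG on both strands, within 500 bases on each side of the RefSeq transcript start (TSS, build TAIR10.1). In each stretch the 14-base match stands with its flanks, 5′ to 3′ on the strand of the match, the fixed letters of the AW Box are in capitals, and distances run to the middle of the match. The first 4 lie in 5′ UTRs of up-regulated members, the next are from the LHCB4 paralogs, and the last are the upstream matches closest to a TSS.
LHCB2.1, chr2:1824346-1824359, minus strand, 127 bases after the TSS: tttcctttCaTtGtagttaaCGaaaagatt
PSAF, chr1:11215956-11215969, plus strand, opposite to the gene, 178 bases after the TSS: gtcgggttCtTtGgagatttCGaattctag
PETE2, chr1:7043329-7043342, plus strand, opposite to the gene, 56 bases after the TSS: tcgtttagCtTtGgttcgatCGagtttatg
FD1, chr1:3664326-3664339, plus strand, 145 bases after the TSS: agcccacaCaTcGtacgccaCGtggcagat
LHCB4.3, chr2:16745955-16745968, minus strand, opposite to the gene, coding exon, 333 bases after the TSS: gaaccgggCtTgGaccctacCGgttccagg
LHCB4.2, chr3:2717902-2717915, minus strand, opposite to the gene, coding exon, 351 bases after the TSS: aagtgaacCgTcGagatattCGggtgattt
FD2, chr1:22444284-22444297, minus strand, opposite to the gene, 17 bases before the TSS: tattcggaCcTtGtttgtatCGtctaaata
ATPC1, chr4:2352106-2352119, minus strand, 95 bases before the TSS: aaaaaaaaCaTtGaagatatCGaaccatcc

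The members moved in the same direction. Of the 50 tested members, 19 were up-regulated in GmWRI1 (log2 fold change over 1 and adjusted p under 0.05 in edgeR's quasi-likelihood test), against 9.44% of all 14762 genes tested. None was down-regulated, against 1.45% of all genes, and no member had a lower estimate in GmWRI1. Among the 19, LHCB4.3, PSAH2 and PETE1 passed the count filter only with their GmWRI1 libraries, the group where they are high. With the adjusted p alone, 44 of 50 were higher, against 20.4% of all genes (41 with DESeq2 and 39 to 43 when 1 library was left out), and in 45 of 50 the lowest GmWRI1 library was above the highest mCHERRY library, against 24.9%. The median log2 fold change of the members was 0.85, with a range of 0.04 to 3.73, and that of all genes was -0.01. Below, "rose" means that the adjusted p was passed. That call was lost for LHCA1 without mCHERRY replicate 2 or GmWRI1 replicate 1 (edgeR adjusted p = 0.059 and 0.0504), and for PSBY (0.0901) and PSAH1 (0.0711) without mCHERRY replicate 2. It was also lost for LHCB3 without mCHERRY replicate 1 (0.0741), and for PSAK, PETE1, LHCB1.1, LHCB1.2 and LHCB1.5 as given beside their values.

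**Figure D1:**
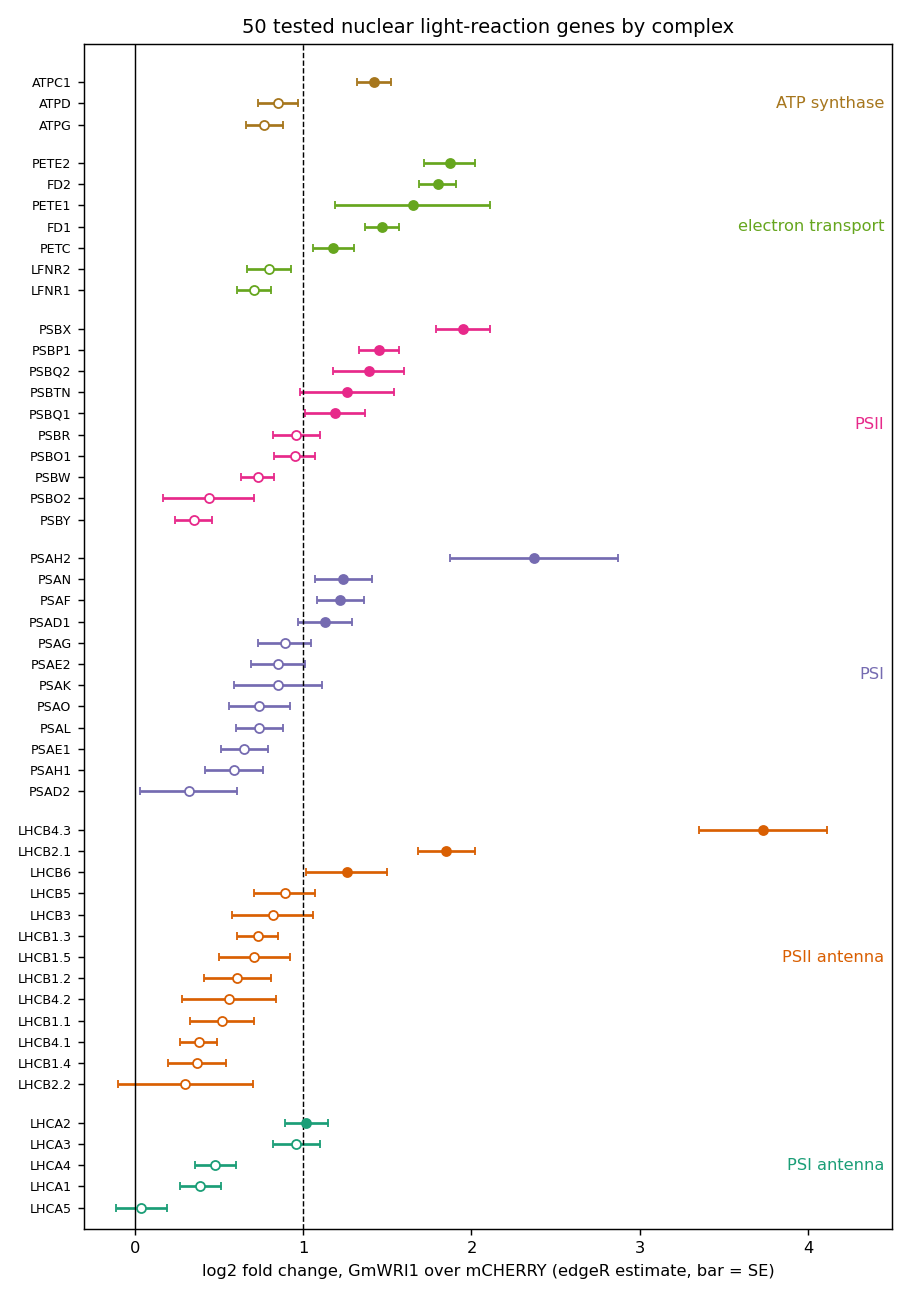
Log2 fold change of the 50 tested members (horizontal axis, GmWRI1 over mCHERRY, bars are 1 SE derived from the edgeR test statistic), grouped by complex and ordered within it. Filled points are the 19 up-regulated members, the dashed line marks a log2 fold change of 1, and every point lies at or above 0.04.

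Per kilobase of transcript, members lay between percentile 1.78 (LHCB4.3) and percentile 95.7 (PSBR) of the genes tested in mCHERRY. There their median level was 14.5 CPM per kb, against 10.1 for all genes tested that had an annotated length, and in GmWRI1 it was 27.3 against 11.1.

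All members summed to 981, 974 and 1102 CPM in the mCHERRY libraries and to 1991, 2121 and 1967 CPM in the GmWRI1 libraries. The groups did not overlap, and the summed level was 1.99-fold higher in GmWRI1. The exact two-sided permutation test gave p = 0.1, the smallest that 3 against 3 libraries allow, and the same holds for every exact p below.

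Each complex, with the electron transport genes taken as a group, was higher in summed CPM, in which abundant genes such as FD2 and PSBR weigh most. Summed CPM of the PSI antenna was 1.53-fold higher in GmWRI1, of the PSII antenna 1.68-fold, of PSI 1.82-fold, of PSII 1.96-fold, of the ATP synthase 2.08-fold and of electron transport 2.58-fold, with no overlap between the groups in any of them (exact p = 0.1 each). The order of these complexes was not tested. Within mCHERRY, replicate 3 was the highest library for PSI (144, 133 and 179 CPM) and PSII (264, 244 and 324 CPM), but not for the PSI antenna (124, 114 and 113 CPM) or the PSII antenna (135, 147 and 143 CPM).

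**Figure D2:**
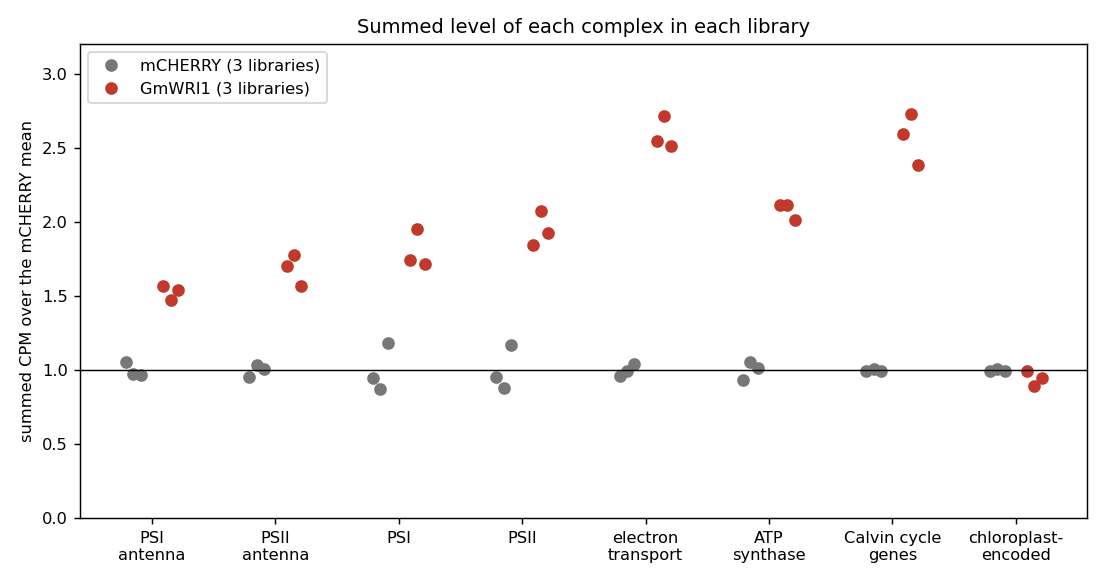
Summed CPM of each complex in each library divided by the mCHERRY mean of that complex (vertical axis, from 0), with the Calvin cycle genes and the chloroplast-encoded subunits beside them. Grey points are the 3 mCHERRY and red points the 3 GmWRI1 libraries, which are apart for all 6 complexes and the Calvin cycle genes and overlap for the chloroplast-encoded subunits.

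The LHCA proteins form the PSI antenna. LHCA1, LHCA2, LHCA3 and LHCA4, its main components, rose. LHCA2 (AT3G61470) measured 19.6, 18.8 and 23.3 CPM in mCHERRY and 39.9, 42.7 and 41.3 CPM in GmWRI1. It was the only up-regulated LHCA gene, and it lay at the limit (log2 fold change 1.02 ± 0.13 (SE), edgeR adjusted p = 1.59e-06). LHCA3 was just below it at 0.96 ± 0.14. LHCA5, a minor antenna protein, measured 17.2, 18.3 and 15.8 CPM in mCHERRY and 19.2, 15.2 and 18.4 CPM in GmWRI1, with overlapping groups (log2 fold change 0.04 ± 0.15, edgeR adjusted p = 0.884). LHCA6, the closest paralog of LHCA2, had 3, 0 and 1 counts in mCHERRY and 10, 2 and 5 in GmWRI1. The ratio of its summed counts, scaled by library size, was 3.27 (95% exact binomial interval 1.07 to 13.4, counting error only).

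Without mCHERRY replicate 1, mCHERRY replicate 2 or GmWRI1 replicate 2, LHCA2 fell under the fold limit at 0.98, 0.96 and 0.99, and LHCA3 passed it at 1.13 without mCHERRY replicate 1 and at 1.0 without GmWRI1 replicate 3.

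LHCB1, LHCB2 and LHCB3 form the trimeric major antenna of PSII. The 5 LHCB1 genes had higher values in every GmWRI1 library than in any mCHERRY library, and none was up-regulated. LHCB1.3 (AT1G29930), the highest of them, measured 25.8, 30.3 and 31.9 CPM in mCHERRY and 49.1, 49.9 and 45.7 CPM in GmWRI1. Its log2 fold change was 0.73 ± 0.12 (edgeR adjusted p = 4.81e-05). LHCB1.1 measured 7.83, 9.41 and 8.66 against 10.7, 13 and 13.95 CPM, and LHCB1.2 7.95, 8.11 and 5.69 against 11.7, 11.8 and 10.1 CPM. Both passed the test, with log2 fold changes of 0.52 and 0.61 (edgeR adjusted p = 0.0399 and 0.0236), but not with DESeq2 (0.0879 and 0.0584). LHCB1.1 also missed it without any 1 library other than GmWRI1 replicate 1 (edgeR adjusted p up to 0.15), and LHCB1.2 without mCHERRY replicate 3, GmWRI1 replicate 1 or GmWRI1 replicate 2 (up to 0.0822). LHCB1.5 measured 7.58, 8.11 and 6.68 against 10.1, 15.2 and 12.1 CPM and rose by 0.71, a call lost without GmWRI1 replicate 2 (0.53, edgeR adjusted p = 0.0742). LHCB1.4 measured 10.8, 11.5 and 11.9 against 14.95, 15.5 and 13.1 CPM, which did not pass the test (log2 fold change 0.37 ± 0.17, edgeR adjusted p = 0.0993). The 5 genes share sequence: between 67.0% and 79.6% of the 36-base windows of each were found in no other primary transcript. With windows of 86 bases it was 92.2% to 97.3%. The read length is not given, so the loss of shared reads, and with it their counts, is uncertain. Their sum was 64.1 ± 3.84 CPM in mCHERRY and 99.0 ± 5.57 CPM in GmWRI1 (SD, n = 3 each), a log2 difference of 0.63 (exact p = 0.1).

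The 3 LHCB2 genes had unlike changes. LHCB2.1 (AT2G05100) measured 9.91, 6.98 and 6.93 CPM in mCHERRY and 28.4, 32.4 and 27.7 CPM in GmWRI1, a log2 fold change of 1.85 ± 0.17 (edgeR adjusted p = 1.4e-08). LHCB2.2 measured 1.47, 1.46 and 1.24 against 1.62, 1.66 and 2.02 CPM (0.30 ± 0.40, adjusted p = 0.612). LHCB2.3 had 4, 7 and 5 counts against 13, 9 and 8, below the filter. Within the family, the log2 ratio of LHCB2.1 to the other LHCB2 counts was 2.34, 1.43 and 1.49 in mCHERRY and 3.38, 3.48 and 2.93 in GmWRI1, without overlap. LHCB2.1 has in its 5′ UTR the AW Box match printed above, LHCB2.3 has one in a coding exon 147 bases after the TSS, and LHCB2.2 has none. In the LHCB2 genes 64.1% to 73.3% of the 36-base windows and 77.0% to 87.1% of the 86-base windows were unique, so the split among them is uncertain. LHCB3 rose from 4.86 ± 1.03 to 8.49 ± 0.0544 CPM (0.82 ± 0.24).

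LHCB4 (CP29), LHCB5 (CP26) and LHCB6 (CP24) are the minor antennas that link the trimers to the PSII core. LHCB4.3 (AT2G40100), which is also known as LHCB8, had the largest log2 fold change of all members. Its mCHERRY counts alone would not have passed the filter, so its place in the test rests on GmWRI1. It measured 0.49, 0.487 and 0.742 CPM in mCHERRY, from 4, 3 and 3 counts, and 7.0, 8.71 and 6.67 CPM in GmWRI1, from 82, 63 and 33 counts. The groups were far apart (3.73 ± 0.38, edgeR adjusted p = 6.95e-08), and the ratio of the summed counts was 13.7 (95% exact binomial interval 7.28 to 29.1, counting error only). LHCB4.1 measured 41.1, 44.5 and 43.8 against 59.2, 56.3 and 52.2 CPM and rose by 0.38 ± 0.11. LHCB4.2 measured 4.65, 3.41 and 3.71 against 7.18, 5.94 and 3.84 CPM, with overlapping groups and no passed test (0.56 ± 0.28, adjusted p = 0.134). Per kilobase, LHCB4.3 lay below LHCB4.2 in every mCHERRY library (0.369 to 0.562 against 2.66 to 3.62 CPM per kb). In GmWRI1 their ranges met, at 5.05 to 6.59 and 3.00 to 5.60 CPM per kb. LHCB4.1 was the highest of the 3 throughout. LHCB4.2 and LHCB4.3 each have an AW Box match in a coding exon at a similar distance from the TSS, as printed above, and LHCB4.1 has none. LHCB6 was up-regulated, from 3.55, 4.22 and 6.68 CPM to 12.4, 10.4 and 9.71 CPM (1.26 ± 0.24, edgeR adjusted p = 0.00031). LHCB5 rose by 0.89 ± 0.18, and by 1.02 without GmWRI1 replicate 3, which put it past the fold limit.

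**Figure D3:**
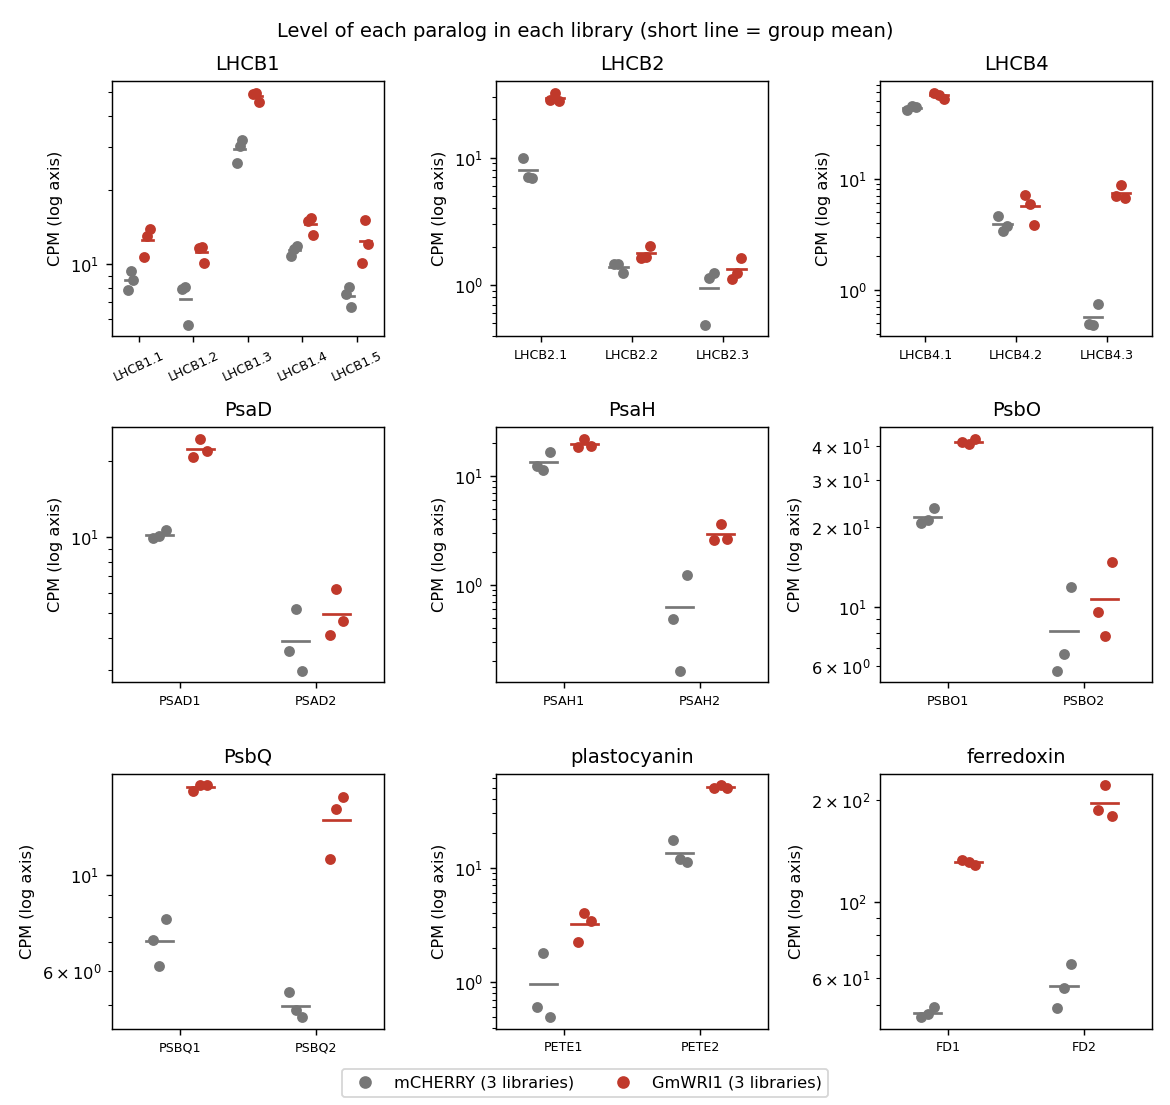
CPM of each paralog (vertical axes, logarithmic, each panel with its own range) in the 3 mCHERRY libraries (grey) and the 3 GmWRI1 libraries (red), with short lines at the group means. LHCB4.3, LHCB2.1 and PSAH2 are further apart between groups than their paralogs, while both plastocyanins, both PsbQ genes and both ferredoxins rose.

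All PSI subunit genes except PSAD2 rose, and 4 of 12 were up-regulated. PsaD and PsaE form the stromal docking surface of PSI, PsaF contributes to plastocyanin docking and PsaN lies on the lumenal side. PSAF (AT1G31330) measured 15.8, 14.9 and 13.1 CPM in mCHERRY and 33.7, 34.6 and 35.0 CPM in GmWRI1 (1.22 ± 0.14, edgeR adjusted p = 2.96e-07). PSAN measured 10.6, 10.1 and 8.16 against 23.2, 26.4 and 19.4 CPM (1.24 ± 0.17). Among the PsaD genes, PSAD1 measured 9.91, 10.1 and 10.6 against 20.6, 24.3 and 21.8 CPM and was up-regulated (1.13 ± 0.16). PSAD2 measured 3.55, 5.19 and 2.97 against 4.1, 6.22 and 4.65 CPM, with overlapping groups (0.32 ± 0.29, edgeR adjusted p = 0.431).

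The PsaE genes differed less. PSAE1 measured 17.4, 16.9 and 23.0 against 28.8, 27.9 and 32.2 CPM, and PSAE2 11.9, 11.5 and 14.8 against 23.5, 22.8 and 21.03 CPM, with log2 fold changes of 0.65 and 0.85. PsaH helps to dock the mobile antenna during state transitions. PSAH1 measured 12.5, 11.4 and 16.6 against 18.7, 22.0 and 18.8 CPM (0.59 ± 0.17). PSAH2 had 4, 1 and 5 counts against 30, 26 and 13, or 0.49, 0.162 and 1.24 against 2.56, 3.59 and 2.63 CPM. It was up-regulated (2.37 ± 0.50, edgeR adjusted p = 0.000865), with a ratio of summed counts of 5.31 (95% exact binomial interval 2.72 to 11.6). Without mCHERRY replicate 3 its log2 fold change was 3.01, the highest of a leave-one-out range that began at 1.92. Reads can be lost here too, since 50.3% of the 36-base windows of PSAH1, 40.4% of PSAG and 69.6% of PSAE1 were unique. With windows of 86 bases it was 52.3%, 43.3% and 74.5%.

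PSAG, PSAK, PSAL and PSAO, small subunits at the edge of PSI, rose by 0.89, 0.85, 0.74 and 0.74. PSAK measured 11.7, 7.79 and 27.0 CPM in mCHERRY and 22.6, 29.9 and 26.7 CPM in GmWRI1, so that mCHERRY replicate 3 lay within the GmWRI1 range. Without that library its log2 fold change was 1.39 and it was up-regulated. It did not pass even the adjusted p without mCHERRY replicate 1 (0.68, edgeR adjusted p = 0.0803), mCHERRY replicate 2 (0.52, 0.123) or GmWRI1 replicate 2 (0.74, 0.0625), nor with DESeq2 (0.77, adjusted p = 0.287). PSAG reached 1.01 without GmWRI1 replicate 3.

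In PSII, 9 of 10 genes rose and 5 were up-regulated. PsbO, PsbP and PsbQ stabilise the manganese cluster that oxidises water. PSBP1 (AT1G06680) measured 24.3, 24.5 and 21.8 CPM in mCHERRY and 60.6, 74.0 and 59.3 CPM in GmWRI1 (1.45 ± 0.12, edgeR adjusted p = 4.7e-09). Both PsbQ genes were up-regulated. PSBQ1 measured 7.09, 6.17 and 7.92 against 15.7, 16.2 and 16.2 CPM (1.19 ± 0.18), and PSBQ2 5.38, 4.87 and 4.70 against 10.9, 14.2 and 15.2 CPM (1.39 ± 0.21). The PsbO genes did not pass the fold limit. PSBO1 measured 20.7, 21.1 and 23.5 against 41.4, 40.9 and 42.7 CPM and rose by 0.95 ± 0.12. PSBO2 measured 5.75, 6.65 and 11.9 against 9.57, 7.74 and 14.8 CPM, with overlapping groups (0.44 ± 0.27, adjusted p = 0.222). Without mCHERRY replicate 3 it passed the adjusted p (0.75, edgeR adjusted p = 0.0367).

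Small subunits of PSII spanned the range. PSBX (AT2G06520) measured 11.6, 10.4 and 14.6 CPM in mCHERRY and 43.6, 55.0 and 40.0 CPM in GmWRI1, the largest change in PSII (1.95 ± 0.16, edgeR adjusted p = 1.92e-09). PSBY measured 36.9, 35.1 and 38.8 against 47.4, 45.9 and 47.7 CPM, the smallest (0.35 ± 0.11). PSBTN, which encodes PsbTn and is not the chloroplast gene psbT, measured 2.57, 2.76 and 3.22 against 5.64, 8.43 and 6.27 CPM (1.26 ± 0.28). PSBW rose by 0.73. PSBR, the most abundant member per kilobase, measured 90.5, 82.1 and 136.8 against 175.8, 218 and 203.7 CPM and rose by 0.96 ± 0.14. It passed the fold limit without mCHERRY replicate 3 (1.2) and without GmWRI1 replicate 1 (1.06).

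The electron carriers had the highest median log2 fold change, 1.47, and all 7 genes rose. PETC (AT4G03280), the Rieske iron-sulfur protein of the cytochrome b6f complex, measured 18.1, 18.2 and 20.0 CPM in mCHERRY and 43.1, 41.8 and 42.3 CPM in GmWRI1 (1.18 ± 0.12). Plastocyanin carries electrons from b6f to PSI. PETE2 (AT1G20340), the main plastocyanin gene here, measured 17.4, 11.8 and 11.1 against 49.7, 52.4 and 49.3 CPM (1.87 ± 0.15, edgeR adjusted p = 1.58e-09). PETE1 had 5, 11 and 2 counts against 26, 29 and 17, or 0.611, 1.78 and 0.495 against 2.22, 4.01 and 3.44 CPM. Its log2 fold change was 1.65 ± 0.46 (adjusted p = 0.00747) and the ratio of summed counts 3.08 (95% exact binomial interval 1.82 to 5.48). Without mCHERRY replicate 1 the call was lost (1.31, edgeR adjusted p = 0.0647), and without mCHERRY replicate 2 the log2 fold change was 2.42.

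Ferredoxin takes electrons from PSI. FD2 (AT1G60950), the main leaf ferredoxin, measured 48.9, 55.8 and 65.8 CPM in mCHERRY and 186.5, 221 and 179.6 CPM in GmWRI1 (1.80 ± 0.11, edgeR adjusted p = 3.8e-11). FD1 (AT1G10960) measured 46.0, 47.1 and 49.2 against 133, 131 and 128 CPM (1.47 ± 0.10, adjusted p = 5.68e-11). Both were up-regulated, and the log2 ratio of FD1 to FD2 was -0.09, -0.25 and -0.42 in mCHERRY and -0.49, -0.75 and -0.48 in GmWRI1. The leaf FNR genes, whose products pass these electrons to NADP, moved less. LFNR1 measured 48.7, 50.5 and 46.8 against 81.9, 78.7 and 78.9 CPM, and LFNR2 22.0, 23.0 and 25.5 against 37.6, 40.1 and 44.9 CPM, with log2 fold changes of 0.71 ± 0.10 and 0.80 ± 0.13.

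The nuclear ATP synthase subunits all rose. ATPC1 (AT4G04640), the gamma subunit of the catalytic head, measured 42.1, 46.6 and 46.0 CPM in mCHERRY and 116.9, 123.6 and 119.9 CPM in GmWRI1 (1.42 ± 0.10, edgeR adjusted p = 1.58e-10). ATPD, the delta subunit, rose by 0.85 ± 0.12. ATPG, a subunit of the peripheral stalk, measured 45.9, 54.8 and 53.9 against 91.2, 89.7 and 80.7 CPM and rose by 0.77 ± 0.11. It was the smallest change of the 3.

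Across the 13 paralog sets, 24 ratios within a library were compared, and in 10 the groups did not overlap (exact p = 0.1, 0.24 after Benjamini-Hochberg adjustment over the 24). None can pass 0.05 in this design, and under random labels each ratio has a probability of 0.1 of no overlap. In sets of 3 or more genes each gene was set against the sum of the others, so these ratios are not independent. The differences of LHCB2.1 (1.51) and LHCB2.2 (-1.45), for example, largely mirror each other. The largest difference was that of LHCB4.3 against the other LHCB4 genes, whose log2 ratio was -6.39 ± 0.34 in mCHERRY and -3.05 ± 0.20 in GmWRI1 (SD, n = 3 each). PSAH1 against PSAH2 was at 4.85 ± 1.2 and 2.77 ± 0.14, and PSAD1 against PSAD2 at 1.43 ± 0.45 and 2.18 ± 0.19. The log2 ratios of LHCA5 and LHCB1.4 to the rest of their sets differed by -0.55 and -0.33. The PETE, LFNR, PSBQ, PSAE and PSBO ratios overlapped between the groups.

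In 25 of the 52 members (48.1%) an AW Box match lay in the 500 bases after the TSS, against 42.8% of genes tested and 39.5% of all nuclear genes. Before the TSS it was 10 members (19.2%), against 19.5% and 19.1%. These shares were close to the background. Of the up-regulated members, 9 of 19 had a match after the TSS. The median log2 fold change was 0.87 for members with such a match (24 tested) and 0.85 for those without it (26 tested). For a match before the TSS the medians were 1.26 (9 tested) and 0.80 (41 tested). Of those 9 members 8 were up-regulated, against 11 of the 41 without a match before the TSS. For a match after the TSS it was 9 of 24, against 10 of 26. These counts rest on few genes and were not tested. Of all genes tested 9.44% were up-regulated, and the share among those with a match before the TSS was not computed. Most matches, 26 of 46 counted on both strands, lay in coding exons, and 6 touched a 5′ UTR.

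**Figure D4:**
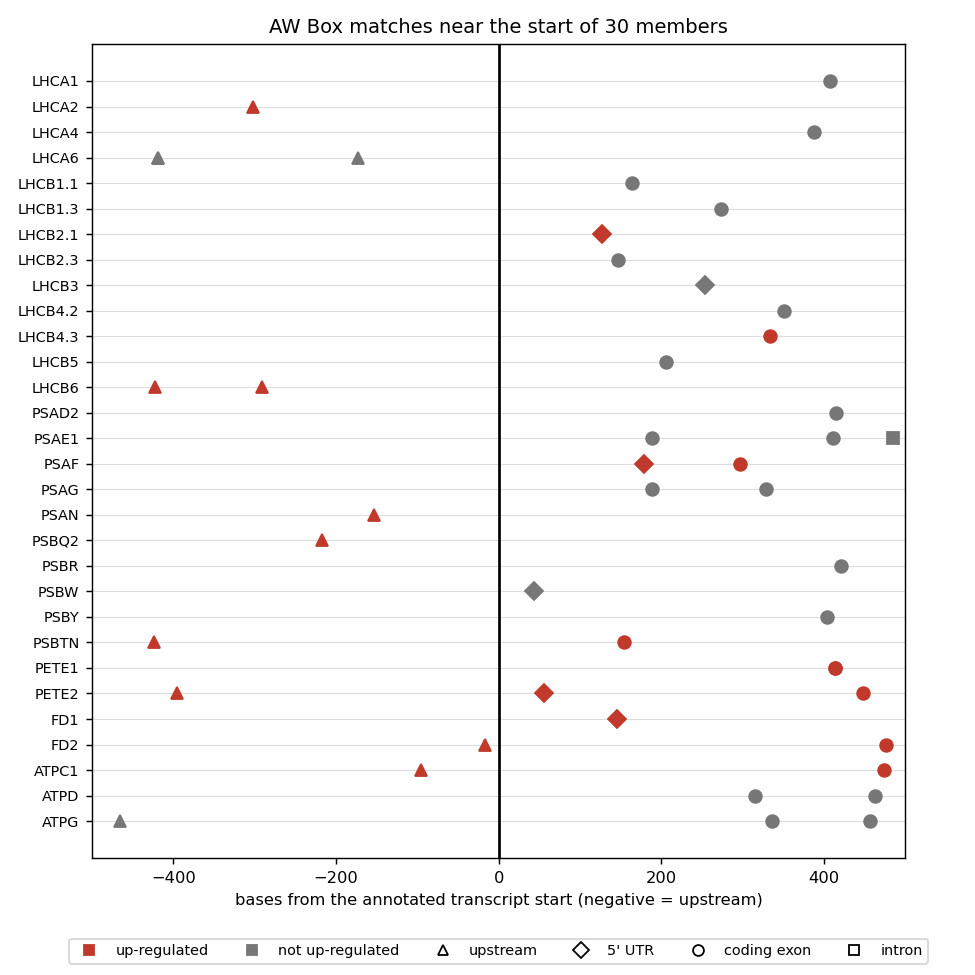
Position of every AW Box match in the 30 members that have one, in bases from the annotated TSS (horizontal axis, negative is upstream), with red for up-regulated members and the shape for the annotated feature. Matches after the TSS are mostly circles (coding exons) and belong to up-regulated members and others. Before the TSS, ATPG and LHCA6 are the only members drawn in grey. Grey includes LHCA6 and LHCB2.3, which were not tested.

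Other motifs were counted in the same windows. The CNC Box (CNCCNCC), a second motif examined in the study, was found after the TSS in 40 members (76.9%), against 51.8% of genes tested, and before it in 11 (21.2%), against 21.8%. The G box CACGTG, bound by light-regulated factors such as HY5, was found before the TSS in 12 members (23.1%) against 11.0%, and after it in 14 (26.9%) against 6.51%. The stretch printed for FD1 also holds these letters. The I box GATAAG, an element known from light-responsive genes, was found before the TSS in 20 members (38.5%) against 22.7%, and after it in 27 (51.9%) against 24.5%. Before the TSS, the median log2 fold change with and without the motif was 1.25 and 0.83 for the CNC Box, 1.18 and 0.80 for the G box, and 1.19 and 0.81 for the I box. After the TSS it was 0.85 and 0.94, 0.95 and 0.85, and 0.80 and 0.85 in the same order. These are descriptions of letters in a window and were not tested.

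The chloroplast-encoded subunits of the same complexes had mostly lower estimates, 28 of 30 tested, against 7570 of the 14762 genes. Of these 30, 1 rose (psbZ, 0.92), 10 were lower by the adjusted p, against 14.6% of all genes, and 1 of these, petG of the cytochrome b6f complex, was down-regulated (-1.70 ± 0.14). Their median was -0.18. The next largest was psbK at -1.0, at the fold limit, which passed it in several alternatives (-1.26 without mCHERRY replicate 1 and -1.16 without GmWRI1 replicate 1). The log2 ratio of summed member counts to summed chloroplast-encoded counts was -6.62, -6.65 and -6.46 in mCHERRY and -5.60, -5.35 and -5.55 in GmWRI1, a difference of 1.08 without overlap (exact p = 0.1). Most of it lay in the members, whose summed level differed by log2 0.99. The summed chloroplast-encoded level differed by log2 -0.08, with overlapping groups.

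The Calvin cycle genes had a higher median than the members, 1.22. Of 19 tested, 12 were up-regulated, against 9.44% of all genes, and none was down-regulated, against 1.45%. RBCS1A, a Rubisco small subunit gene, and PRK, phosphoribulokinase, had the largest changes (2.95 ± 0.11 and 2.66 ± 0.16). The log2 ratio of members to Calvin cycle genes was 0.30, 0.27 and 0.47 in mCHERRY and -0.06, -0.04 and 0.05 in GmWRI1, lower by 0.37 on average, without overlap (exact p = 0.1). The others up-regulated were RBCS3B, RCA, PGK1, GAPA2, GAPB, FBA1, FBA2, SBPASE, RPE and RPI3, from 1.02 to 2.51, while the transketolase gene TKL2 was lower (-0.49). FBA2, the smallest of these at 1.02, was under the limit without mCHERRY replicate 3 (0.98) or GmWRI1 replicate 1 (0.99).

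Other nuclear light reaction genes were less uniform, with 7 of 25 tested up-regulated, against 9.44% of all genes. They had a median of 0.57 and values from -0.53 to 2.46. Ferredoxin and FNR genes of non-green plastids were among them: FD3 (1.34 ± 0.11) and RFNR2 (2.46 ± 0.26) were up-regulated and RFNR1 was lower (-0.53 ± 0.13). The photoprotective subunit gene PSBS (1.09), the thylakoid curvature gene CURT1A (1.17), the PSII assembly factor PSB28 (1.60), the cyclic electron flow gene PGRL1A (1.24) and the NDH complex gene PNSB1 (1.34) were up-regulated too. Of 12 tested assembly factors, 7 rose, against 20.4% of all genes tested, and 1 was up-regulated, close to the 9.44% of all genes. That was LTD, which guides imported LHC proteins toward the thylakoid. It had 8 summed counts in mCHERRY and 48 in GmWRI1 (ratio 4.62, 95% exact binomial interval 2.17 to 11.3). The next largest was Y3IP1, a PSI assembly factor, at 0.97, which passed the fold limit without mCHERRY replicate 2 (1.03) or GmWRI1 replicate 1 (1.07).

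**Figure D5:**
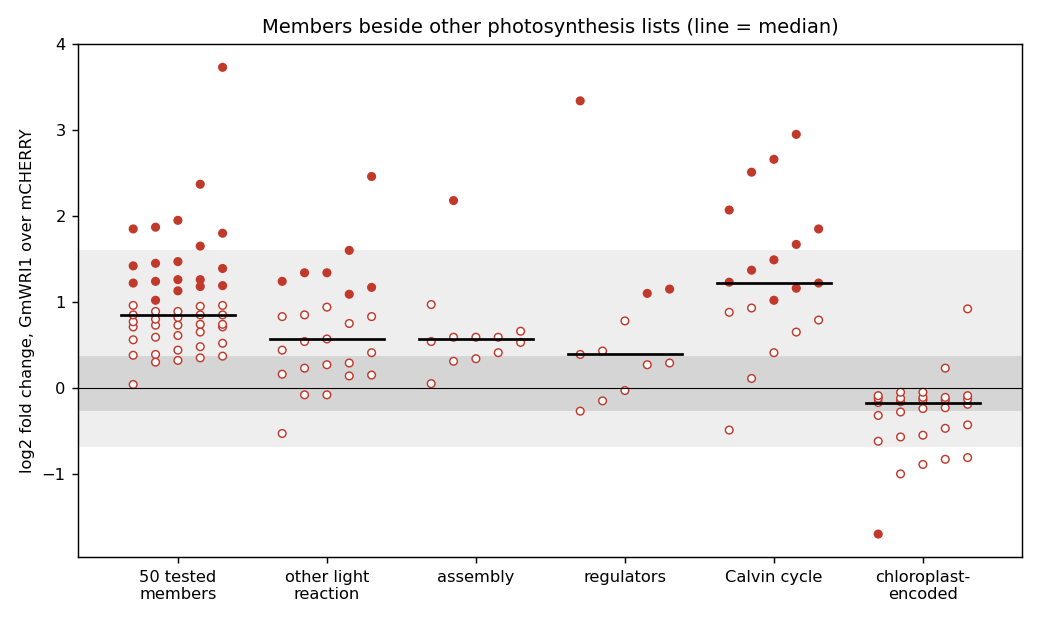
Log2 fold change (vertical axis, GmWRI1 over mCHERRY) of every tested gene of 6 lists, with a line at each median and filled points for genes past both limits. The shaded bands hold the middle 50% and 90% of all 14762 genes tested, and the medians run from 1.22 for the Calvin cycle genes to -0.18 for the chloroplast-encoded subunits, with 0.85 for the members.

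Among 11 tested regulators of nuclear or chloroplast photosynthesis genes, 3 were up-regulated, against 9.44% of all genes tested. GLK2 (AT5G44190) measured 2.32, 1.3 and 3.96 CPM in mCHERRY and 23.2, 27.8 and 21.2 CPM in GmWRI1 (3.34 ± 0.25, edgeR adjusted p = 5.99e-10). Its partner GLK1 measured 31.2, 31.6 and 26.5 against 28.3, 21.7 and 24.1 CPM and did not pass (-0.27 ± 0.14). The sigma factor genes SIG5 (1.15) and SIG6 (1.1), whose products direct chloroplast transcription, were the others, and SIG6 was under the limit without mCHERRY replicate 1 or replicate 2 (0.99 each). HY5 was at -0.03.

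Of the clock genes, ELF4 was up-regulated (1.34 ± 0.16), and the other 8 lay between -0.24 and 0.17 with none past the adjusted p. Of the 4 genes known to respond to darkness or sugar starvation, DIN2 was lower (-0.72 ± 0.09) and SEN1, ASN1 and DIN10 did not pass, at 0.14, 0.10 and 0.23. The part of GLK2, ELF4 or DIN2 in the members' values was not tested.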

How the data were processed

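Libraries were made by the authors from amplified cDNA. Ribosomal RNA reads were filtered out, and Bowtie 0.12.7 aligned the others to TAIR10 primary transcripts, allowing 2 mismatches and dropping reads with more than 1 best location. Reads shared by near-identical or overlapping transcripts are therefore lost, and use of strand and the read length are not given in the sources used here. The deposited count files give raw counts per transcript in each library. The deposited normalized table (signal) holds these counts for 15541 transcripts divided by 1 constant per library, with edgeR 3.10.5 named for TMM normalization, and it served only as an alternative set of transcripts.

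Counts were tested with edgeR 4.0.16 in R 4.3.3 (filterByExpr with a minimum count of 10, TMM, glmQLFit and glmQLFTest on all genes, Benjamini-Hochberg adjustment, 3 against 3 libraries). The line naming no gene was left out. The SE of a log2 fold change was derived as its absolute value divided by the square root of the edgeR F statistic. Within groups, counts differed by 2.88 to 6.93 times sampling noise (chi-square per degree of freedom), so no library was a copy. Summed levels and ratios were compared by exact two-sided permutation tests over the 6 libraries, and ratios of low counts carry 95% exact binomial intervals. The filter asks for about 10 counts in 3 libraries, and a count of 0 allows up to 3 counts, or 0.256 to 0.742 CPM. LHCB2.2, LHCB4.3, PSAH2 and PETE1 would not pass the filter on their mCHERRY libraries alone. The same holds for LTD, PNSB1 and GLK2 of the other lists.

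Members and lists were chosen with earlier results of these data known. Values per library are given for members past both limits, for LHCB1, LHCB2 and LHCB4 genes, for sets with 1 pair of paralogs, and for the highest and lowest of each complex. Of other lists, genes past both limits and the pair with the largest change are named; GLK1, HY5, SEN1, ASN1 and DIN10 were named after their values were seen. Unique windows and motifs were computed on RefSeq TAIR10.1. Alternatives were other normalizations, filters and tests (DESeq2 1.42.0), leaving out each library, a replicate block, and, chosen after seeing the data, the transcripts of the normalized table and the members with mostly unique windows.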

Additional observations from a re-analysis of the deposited data

How the results depend on the processing

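The count of 19 up-regulated members and the count of 0 down-regulated members held within 1.5 times under every alternative run. The same 19 members were called with RLE size factors, DESeq2, the edgeR exact and likelihood ratio tests, both other filters and the transcripts of the deposited normalized table, and library size alone added LHCA3 and PSBR. Of the 44 members past the adjusted p, 9 lost it in at least 1 alternative (PETE1 and, under the fold limit, LHCA1, LHCB1.1, LHCB1.2, LHCB1.5, LHCB3, PSAH1, PSAK and PSBY), and DESeq2 gave 41. Leaving out 1 library gave 39 to 43 past the adjusted p, 18 to 22 up-regulated members, and a median log2 fold change of 0.79 to 0.93. The median was 0.95 over the 39 tested members with at least 80% unique windows, of which 17 were up-regulated. LHCA5 was the only member to reverse, at -0.01 without mCHERRY replicate 3 and -0.04 without GmWRI1 replicate 1, in a leave-one-out range of -0.04 to 0.13 that never passed the test. The summed level, the ratio to chloroplast-encoded subunits and the ratio to Calvin cycle genes kept their direction under every alternative run (log2 0.96 to 1.05, 1.00 to 1.27 and -0.40 to -0.30).

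Replicate numbers were not treated as pairs, since the labels do not say that a number marks a shared preparation. The deviations of same-numbered libraries correlated at 0.111, -0.012 and 0.046, and those of differently numbered libraries at -0.082 to 0.032. These values do not settle whether the samples were paired. With the number as a replicate block, 19 members were up-regulated, all of them called without it, with a median of 0.87. Limits were low counts (LHCA6, LHCB2.3, LHCB4.3, PSAH2 and PETE1), shared reads in the LHCB1 and LHCB2 families, an unknown share of transfected cells and 3 libraries a group, with which no exact test can pass 0.05.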
